A study of Mus musculus with 20 samples.

Results

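The proteasome subunit genes were followed in mouse cells labelled spleen over 48 h, with and without a stimulation cocktail. Members were the gene symbols that begin with Psma, Psmb, Psmc, Psmd or Psme and a number, without pseudogene names, and with a mean of at least 5 CPM (counts per library after scaling all libraries to the same total) over the 20 libraries. Of 48 such symbols among 41115 genes in the files, 39 met the rule. The rule itself used the name and the mean level. Of the 39, 38 encode subunits, assembly chaperones or activators of the proteasome, and Psmc3ip, a recombination accessory protein that the name pattern also caught, is given apart. The member with the lowest mean was Psmc3ip at 24.5 CPM, and the highest symbol left out was Psme2b, an intronless copy of Psme2, at 3.78 CPM. The other symbols left out were 3 pseudogene rows, with at most 4 counts in any library, and Psma8, Psmb6, Psmb8, Psmb9 and Psmb11, with at most 8 counts in any library.

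The proteasome is the barrel-shaped protease that degrades ubiquitin-tagged proteins in cytosol and nucleus. Its 20S core has outer rings of alpha subunits (Psma genes), which gate the entrance, around inner rings of beta subunits (Psmb genes), of which Psmb6, Psmb7 and Psmb5 cut protein. The 19S cap holds ATPases (Psmc genes) that unfold substrates and non-ATPase subunits (mostly Psmd genes) that bind ubiquitin chains and remove them, while Psme genes encode alternative activators. In lymphocytes and after interferon, Psmb9, Psmb10 and Psmb8 replace Psmb6, Psmb7 and Psmb5 to form the immunoproteasome, which is known for making peptides for class I antigen presentation.

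The stimulated arm received LPS (lipopolysaccharide, a bacterial cell wall component), IL4 and TGFb, which the series text calls an AID stimulation cocktail, and the untreated arm received none. Doses, strain, age and genotype are not given in the labels, nor is whether the cocktail was given to the animal or to its cells. Each arm had 1 poly-A library at 0, 15 and 30 min and at 1, 2, 3, 6, 12, 24 and 48 h, 10 libraries per arm. Per the series text 1 mouse was treated and 1 was not, so the arm cannot be told apart from the animal. Times stood in for replicates: errors and p-values measure spread between times, not between animals. Early (15 min, 30 min, 1 h), middle (2, 3, 6 h) and late (12, 24, 48 h) phases hold 3 times per arm each. Total counts were 36873155 to 60918651 per library, and the member with the fewest counts in any library had 715, so counting error was small for every member. The cells, labelled spleen, carried all 8 B cell markers of a list, at means of 133 to 437 CPM. The 5 plasma cell genes summed to 946 to 1436 CPM in the stimulated and 993 to 1395 CPM in the untreated libraries. Of these, Igj, Irf4 and Xbp1 averaged 480, 397 and 231 CPM, Prdm1 20.4 CPM and Sdc1 0.0455 CPM. Genes of the other listed cell types were lower. The 9 macrophage and monocyte genes summed to 39.6 to 98.3 CPM in the stimulated and 25.9 to 62.5 CPM in the untreated libraries (Csf1r and Cd68 averaged 25.9 and 18.2 CPM). The 5 dendritic cell genes summed to 28.9 to 66.1 and 18.4 to 29.9 CPM, and the 7 T cell genes to 13.9 to 20.3 and 16.3 to 24.5 CPM. The 5 NK cell genes summed to 5.37 to 17.9 and 6.68 to 15.4 CPM. The 5 neutrophil genes summed to at most 0.122 and 0.16 CPM and the 6 red cell genes to at most 1.18 and 1.09 CPM. S100a8, S100a9, Hbb-bs and Lyz1 were listed at 0, from which no absence is read, since genes that every cell uses are listed at 0 too. No time had both arms in the same sequencing lane. In such bulk RNA, fewer cells of a type and less RNA per cell cannot be told apart, and all levels are relative to the other messenger RNA of a library.

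Promoter windows (250 bases before to 50 after the RefSeq start, GRCm38.p6) are shown for the genes on which the results below turn most: Psmd13, with the largest change over time, Psma6, with the largest difference between the arms and a pair of annotated starts, Psmb5, a catalytic subunit, and Psme1, an activator. Capitals mark matches, on either strand, to TGACNNNGC (the core of the antioxidant response element bound by Nfe2l1 and Nfe2l2), CCAAT, or GAAA, any 2 bases, GAAA (the core of the interferon-stimulated response element).
Psmd13, chr7:140882144-140882443, + strand: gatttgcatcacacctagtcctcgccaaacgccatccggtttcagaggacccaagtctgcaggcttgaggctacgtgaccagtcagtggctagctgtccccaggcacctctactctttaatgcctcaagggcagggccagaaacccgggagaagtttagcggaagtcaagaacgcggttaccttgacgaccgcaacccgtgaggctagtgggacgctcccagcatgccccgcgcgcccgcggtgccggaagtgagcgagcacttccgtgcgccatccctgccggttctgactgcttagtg
Psma6, upstream start, chr12:55383972-55384271, + strand: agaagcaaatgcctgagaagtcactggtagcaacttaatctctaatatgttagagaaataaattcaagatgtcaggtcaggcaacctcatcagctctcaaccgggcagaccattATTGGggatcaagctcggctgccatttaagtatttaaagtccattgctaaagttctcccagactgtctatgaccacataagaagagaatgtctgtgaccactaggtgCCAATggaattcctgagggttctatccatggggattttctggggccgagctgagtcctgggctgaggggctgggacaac
Psma6, downstream start, chr12:55398575-55398874, + strand: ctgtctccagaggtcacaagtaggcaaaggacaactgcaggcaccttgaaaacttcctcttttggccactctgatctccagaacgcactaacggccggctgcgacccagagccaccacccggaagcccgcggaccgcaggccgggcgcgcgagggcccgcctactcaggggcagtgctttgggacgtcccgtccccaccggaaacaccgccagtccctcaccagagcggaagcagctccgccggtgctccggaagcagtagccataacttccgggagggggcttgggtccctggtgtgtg
Psmb5, chr14:54617946-54618245, - strand: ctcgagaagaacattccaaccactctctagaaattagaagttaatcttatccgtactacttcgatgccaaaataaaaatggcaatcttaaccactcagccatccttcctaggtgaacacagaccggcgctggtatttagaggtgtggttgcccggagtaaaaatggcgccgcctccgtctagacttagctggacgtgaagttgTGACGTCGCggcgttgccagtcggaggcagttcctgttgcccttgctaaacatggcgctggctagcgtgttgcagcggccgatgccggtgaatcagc
Psme1, chr14:55578244-55578543, + strand: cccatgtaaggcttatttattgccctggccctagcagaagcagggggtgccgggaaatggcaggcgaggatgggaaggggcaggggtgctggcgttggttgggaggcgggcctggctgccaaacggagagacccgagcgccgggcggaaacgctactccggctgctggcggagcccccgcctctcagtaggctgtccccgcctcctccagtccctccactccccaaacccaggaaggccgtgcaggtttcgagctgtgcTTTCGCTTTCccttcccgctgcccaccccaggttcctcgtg
The Psmd13 window and the downstream Psma6 window held none of the 3 motifs. RefSeq windows were matched for 33 of the 39 genes, 36 windows in all. TGACNNNGC was in 5 of them (13.9%, against 12.4% of all 32851 windows), in Psmb5, Psmc6, Psmd12, Psmd9 and Psme4. CCAAT was in 13 (36.1%, against 37.4% of all). The GAAA repeat was in 4 (11.1%, against 3.44% of all), in Psmb3, Psmd4, Psmd9 and Psme1. These matches describe the letters of the windows and are not binding sites.

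The proteasome genes rose together over 48 h, in both arms. Summed over the 38 genes without Psmc3ip, the level at 0, 15 and 30 min and 1, 2, 3, 6, 12, 24 and 48 h was 4698, 4921, 4903, 5251, 6359, 7167, 8339, 9303, 9717 and 7449 CPM in the stimulated arm. The untreated arm had 4740.5, 5219.9, 4909.9, 5381, 6011, 6609, 7381, 8022, 9326 and 7329.9 CPM at the same times. Both courses were slightly above 0 min by 1 h, climbed further from 2 h, were highest at 24 h and were lower again at 48 h. At 1 h 35 of 39 genes of the stimulated and 37 of the untreated arm were above their 0 min level, against 50.5% and 49.6% of all genes, with median log2 changes of 0.12 and 0.17. The median gene at 24 h stood at 2.02 times its 0 min level in the stimulated and 2.01 times in the untreated arm, and at 48 h at 1.58 and 1.56 times. At 24 h all 39 genes were above their 0 min level in each arm, against 49.2% of the 12139 tested genes in the stimulated and 48.8% in the untreated arm. Cell type markers moved over the same times: the 8 B cell genes summed to 1489 to 1645 CPM late and 2373 to 2421 CPM early in the stimulated arm, and to 2034 to 2163 CPM late and 2371 to 2451 CPM early in the untreated arm. The macrophage and monocyte genes summed to 47.3 to 98.3 CPM late and 56.0 to 60.1 CPM early in the stimulated arm, and to 25.9 to 39.1 CPM late and 58.0 to 62.5 CPM early in the untreated arm. The NK cell genes summed to 5.37 to 9.47 CPM late and 17.0 to 17.9 CPM early in the stimulated arm. In the untreated arm they summed to 6.68 to 10.2 CPM late and 14.0 to 15.4 CPM early. The plasma cell genes summed to 946 to 1436 CPM late and 1054 to 1302 CPM early in the stimulated arm. In the untreated arm these were 1198 to 1395 CPM late and 993 to 1049 CPM early. The part of these marker shifts in the change of the proteasome genes was not tested. CPM here is computed on library sizes scaled by TMM, a method that evens out differences in RNA makeup. The TMM factors were 1.09 at 0 min, 0.898 at 24 h and 1.01 at 48 h in the stimulated arm. In the untreated arm they were 1.09, 0.928 and 1.01. A lower factor raises CPM, so by library totals alone the summed rise to 24 h and the drop to 48 h would be smaller.

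**Figure D1:**
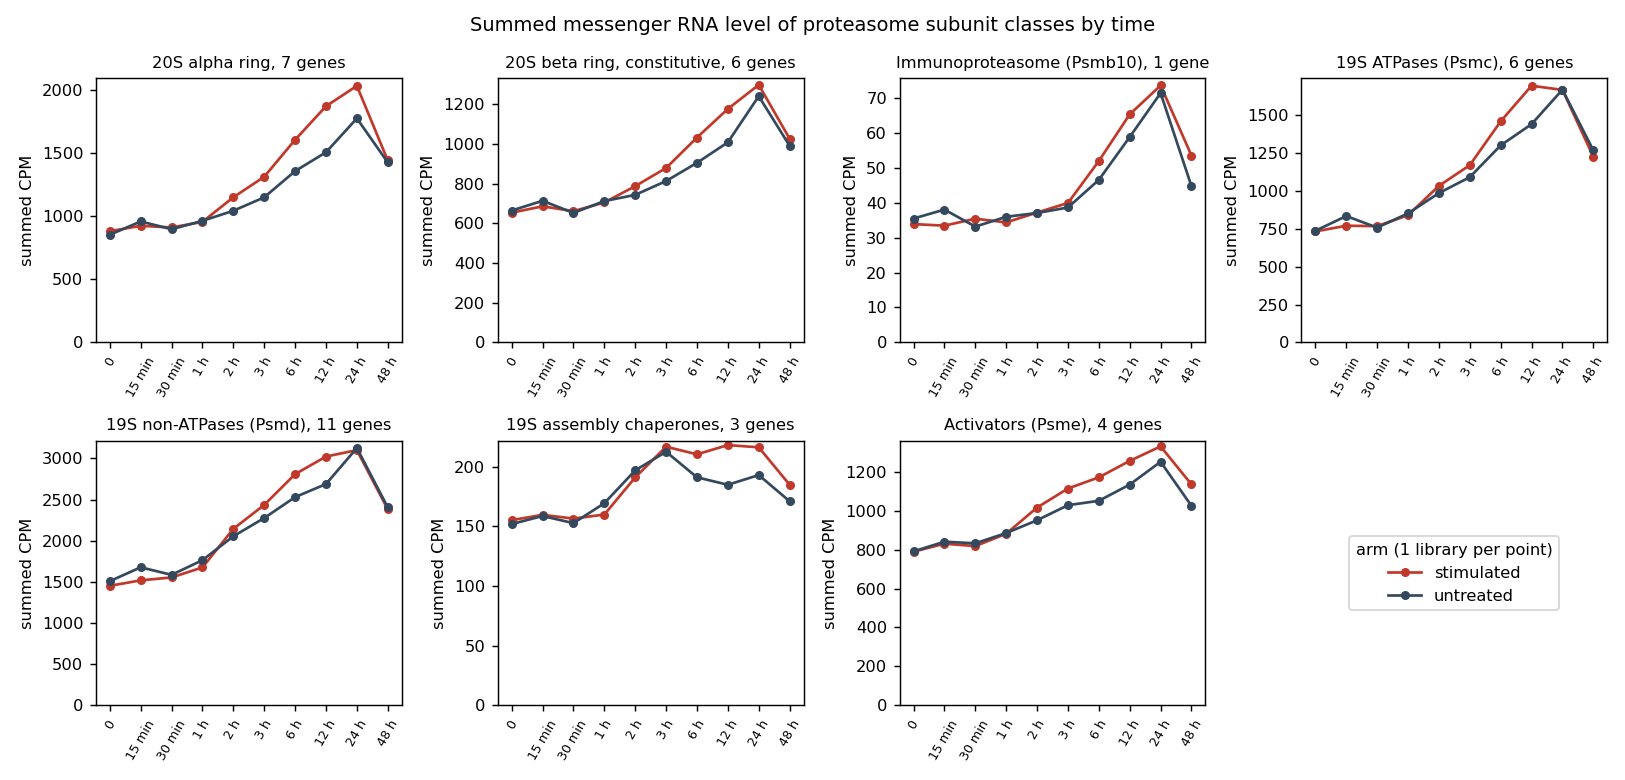
Summed CPM (vertical axes, from 0) of each subunit class at 10 times (horizontal, evenly spaced, not to scale), stimulated arm in red and untreated arm in grey-blue, 1 library per point. Every class except the 19S assembly chaperones reaches its untreated maximum at 24 h, and the 20S alpha ring reaches 2029 CPM in the stimulated and 1772 CPM in the untreated arm there.

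Tested as late over early phase (edgeR quasi-likelihood test, adjusted p under 0.05 over all genes), 38 of 39 genes rose in the stimulated arm and 0 fell, where 29.2% of all genes rose and 25.7% fell. In the untreated arm 36 rose and 0 fell, where 22.6% of all genes rose and 20% fell. The median change was 0.80 on the log2 scale in the stimulated and 0.69 in the untreated arm, against 0.01 and -0.01 over all genes, and 12 and 6 genes were over 2-fold up. By the middle phase, 34 genes had risen in the stimulated arm (22.1% of all genes rose, 19.3% fell) and 20 in the untreated arm (13.6% rose, 11.9% fell), with medians of 0.54 and 0.39 and 0 lower in either. All 3 late libraries lay above all 3 early ones for 38 genes in the stimulated and 35 in the untreated arm, against 32.3% and 29.4% of all genes. Scaled by library totals alone, where the median log2 change of all genes was -0.13 and -0.12, 36 and 31 members still rose late and 0 fell, while over all genes 2656 rose and 3972 fell in the stimulated arm (3549 and 3115 with TMM) and 2047 rose and 3187 fell in the untreated arm (2745 and 2431 with TMM). The late counts ran from 36 to 38 and from 31 to 36 when any time was left out. With all phase limits moved by 1 time (early to 30 min, middle 1 to 3 h, late from 6 h), the middle counts were 0 in each arm, where calls over all genes also dropped, to 0.601% higher in the stimulated and 0 in the untreated arm. The untreated middle count was 7 without 15 min, 1 without 30 min, 12 without 1 h, 2 without 3 h and 12 without 6 h, where 4.97%, 3.01%, 9.25%, 3.79% and 12.8% of all genes rose.

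**Figure D2:**
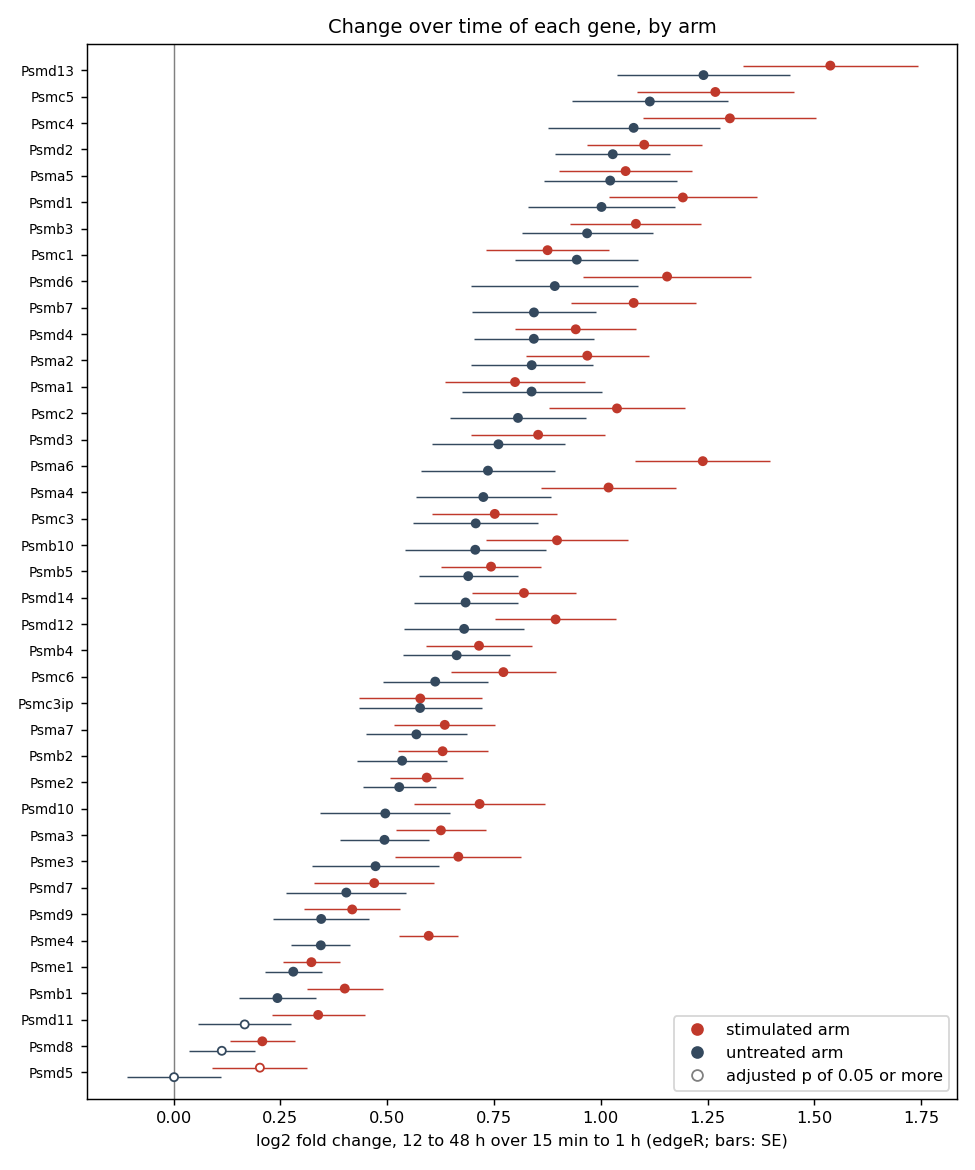
Log2 fold change of the late over the early phase (horizontal) with its SE for the 39 genes, ordered by the untreated arm, with the stimulated arm drawn above the untreated arm in each row and open symbols for genes that did not pass. Psmd13 is at the top with 1.54 and 1.24, and Psmd5 at the bottom with 0.20 and 0.00.

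All 7 genes of the 20S alpha ring rose late over early in both arms, with median log2 changes of 0.97 and 0.74 in the stimulated and untreated arms. Psma6, an alpha subunit with the highest mean level per kb of exon among the members (240.2 CPM per kb), had 204, 222, 216, 234, 274, 312, 390.0, 527, 657 and 403 CPM from 0 min to 48 h in the stimulated arm, against 191, 216, 203, 203, 221, 249, 275, 333, 391 and 311 CPM in the untreated arm. Each stimulated library lay above its untreated partner, by log2 ratios of 0.04 to 0.20 from 0 min to 1 h and of 0.31 to 0.75 from 2 h. The ranges of the arms overlapped in the first hour. Psma6 rose 2.36-fold in the stimulated arm (1.24 ± 0.16, SE, adjusted p = 3.6e-05) and 1.67-fold in the untreated arm (0.74 ± 0.16, adjusted p = 0.0025). Psma5, another alpha subunit, rose 2.08-fold and 2.03-fold. Psma4, a further alpha subunit, had 82.7, 85.6 and 85.7 CPM early, 119, 140.0 and 184 CPM in the middle and 188, 182 and 144 CPM late in the stimulated arm, against 94.9, 85.9 and 94.3, then 103, 118 and 149.7, then 152, 168 and 135 CPM in the untreated arm. Psma4 was below its untreated level in the first hour and above it at each later time.

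The 6 constitutive beta subunits passed late over early in both arms, with medians of 0.73 and 0.68. Psmb5, which carries the chymotrypsin-like activity, had 66.9, 72.8, 72.8, 78.4, 88.5, 98.1, 117, 125, 135 and 115 CPM in the stimulated arm, against 71.3, 71.5, 69.7, 71.5, 82.0, 95.3, 102, 115, 129 and 99.4 CPM in the untreated arm. It rose 1.67-fold (0.74 ± 0.12, adjusted p = 0.00014) and 1.61-fold (0.69 ± 0.12, adjusted p = 0.00073), with late libraries above early ones in each arm. Psmb7, which carries the trypsin-like activity, had 137, 149, 141, 148, 177, 204, 255, 313, 347 and 265 CPM in the stimulated arm, against 134, 151, 132, 152, 161, 185, 211, 235, 308 and 239.6 CPM in the untreated arm. It rose 2.11-fold and 1.79-fold. Psmb7 shares exon bases with Nek6 on the opposite strand, whose mean was 40.8% of that of Psmb7. Since the strand setting of the counting is not given, how reads in the shared bases were counted is uncertain, and the share of such reads was not measured. Psmb1, a beta subunit without catalytic activity, moved least of the class, by 0.40 ± 0.09 and 0.24 ± 0.09 on the log2 scale. Its call in the untreated arm was lost with library totals only, with no filter, with moved phase limits and without 15 min, 30 min, 1 h, 3 h or 24 h.

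Of the immunoproteasome subunits only Psmb10 could be followed, and it rose with the constitutive genes in both arms. Psmb8 had 8 counts and Psmb9 had 0 over all 20 libraries, and so did nearly every gene around them: both lie in a run of 98 consecutive protein-coding genes on chromosome 17, from Angptl4 to H2-Q2 (33773750 to 35346762, GRCm38), each under 0.1 CPM on average. That run holds Brd2, Rps18, Rps28 and Ndufa7, which every cell uses, and H2-Aa and H2-Ab1, the class II genes of B cells. Psmb6, the constitutive partner of Psmb9 with caspase-like activity, had 7 counts and lies in a like run of 13 genes on chromosome 11 (Cxcl16 to Rnf167, 70453983 to 70651421). The neighbours outside the runs were Rab11b at 4.89 and H2-Q4 at 2.01 CPM on chromosome 17, and Med11 at 2.44 and Pfn1 at 0.169 CPM on chromosome 11. Psmb6, Psmb8 and Psmb9 are therefore given as listed at or near 0 and no expression level is read from them, and the catalytic pairs Psmb8 with Psmb5 and Psmb9 with Psmb6 were not compared. Why the files list these regions so was not tested. Psmb11, of the thymus form, had 37 counts in all and Psma8, of the testis form, had 3.

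Psmb10 had 33.8, 33.4, 35.4, 34.3, 37.1, 39.9, 51.9, 65.2, 73.5 and 53.4 CPM from 0 min to 48 h in the stimulated arm, against 35.4, 38.0, 33.1, 35.9, 37.0, 38.6, 46.5, 58.7, 71.3 and 44.7 CPM in the untreated arm. Its increase came at 6 h and later, and the arms stayed close. Late over early it rose 1.86-fold in the stimulated arm (0.90 ± 0.17, adjusted p = 0.00043) and 1.63-fold in the untreated arm (0.71 ± 0.16, adjusted p = 0.0042), while middle over early it did not pass (adjusted p = 0.13 and 0.4). Stimulated over untreated, Psmb10 had log2 fold changes of -0.05 ± 0.07 early, 0.07 ± 0.07 in the middle phase and 0.14 ± 0.07 late, none past the threshold (adjusted p = 0.77, 0.47 and 0.12). Per kb of exon, Psmb10 stood below Psmb7 in every library. The ratio of Psmb10 to Psmb7 averaged 0.438 ± 0.039 in the stimulated and 0.467 ± 0.047 in the untreated arm (SD over 10 times), with ranges of 0.391 to 0.503 and 0.374 to 0.530 that overlap.

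**Figure D3:**
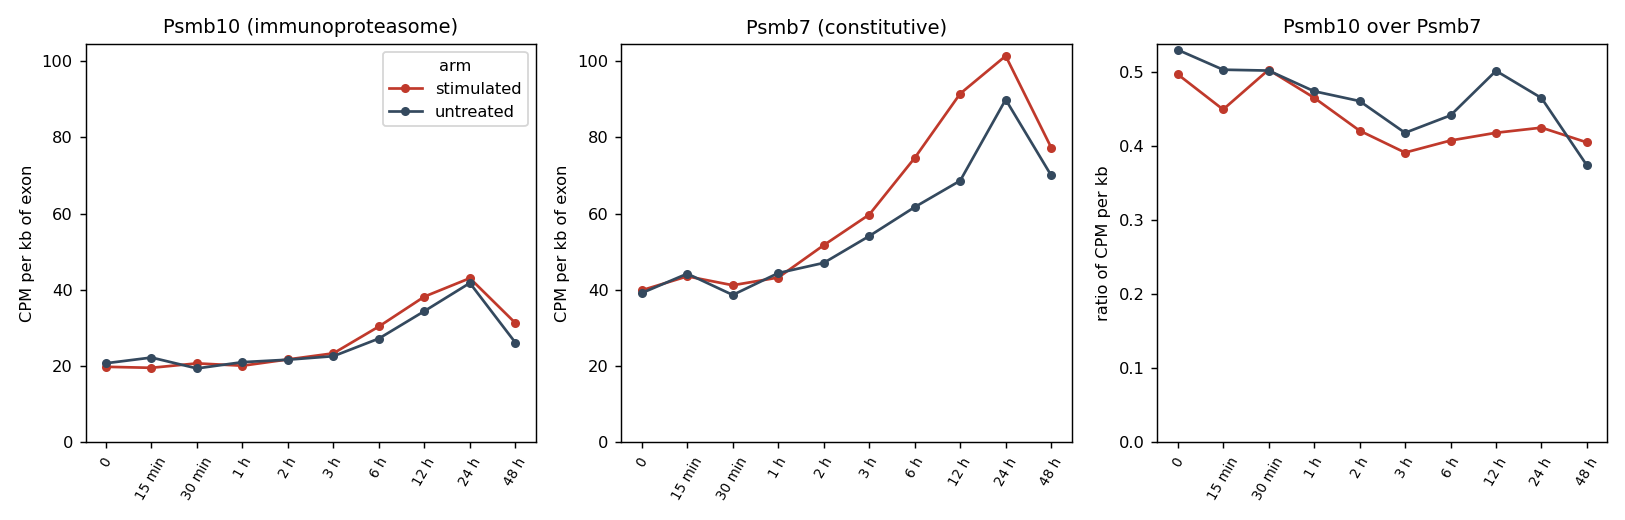
Psmb10 and Psmb7 in CPM per kb of exon (left and middle panel, same scale from 0) and their ratio (right panel) by time, stimulated arm in red and untreated arm in grey-blue, 1 library per point. Psmb10 reaches 43.1 and 41.8 CPM per kb at 24 h in the stimulated and untreated arms, where Psmb7 reaches 101 and 89.9.

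Genes of the 19S ATPase ring moved most as a class by the median in the untreated arm, and all 6 rose late over early in each arm, by medians of 0.96 and 0.88. Psmc4, an ATPase of the ring, had 75.5, 78.9 and 93.6 CPM early, 129.9, 156 and 207 CPM in the middle and 228, 226 and 157 CPM late in the stimulated arm, against 89.1, 79.9 and 94.8, then 129, 148 and 181, then 197, 221 and 138 CPM in the untreated arm. Late over early this was 2.47-fold (1.30 ± 0.20, adjusted p = 0.00013) and 2.11-fold (1.08 ± 0.20, adjusted p = 0.0013), and the middle phase already stood 1.99-fold and 1.74-fold above the early one. Psmc5, another ATPase of the ring, had 78.8, 77.7 and 94.8 CPM early, 131, 155 and 196 CPM in the middle and 222, 227 and 157 CPM late in the stimulated arm, against 91.7, 83.4 and 95.1, then 126, 146 and 173, then 191, 237 and 157 CPM in the untreated arm. It rose 2.41-fold and 2.17-fold late over early. For both genes the 48 h library was the lowest of the late ones and still above every early one.

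Among the 11 non-ATPase subunits of the cap, 11 rose in the stimulated and 9 in the untreated arm, by medians of 0.89 and 0.76. Psmd13, a lid subunit, changed most of all members: it had 51.5, 52.7, 54.6, 58.0, 72.1, 85.1, 121, 158, 192 and 129.8 CPM in the stimulated arm, against 55.5, 67.5, 55.1, 61.8, 74.4, 86.1, 116, 142, 173 and 120.5 CPM in the untreated arm. It rose 2.90-fold (1.54 ± 0.20, adjusted p = 4.7e-05) and 2.36-fold (1.24 ± 0.20, adjusted p = 0.00064), and each late library was above every middle one in both arms. Psmd13 shares exon bases with Sirt3 on the opposite strand, whose mean was 11.4% of its own. Psmd1, a large base subunit that binds ubiquitin receptors, had 138, 154 and 181 CPM early, 258, 295 and 361 CPM in the middle and 408, 398 and 275 CPM late in the stimulated arm, against 174, 165 and 198, then 240.1, 262 and 323, then 353, 415 and 307 CPM in the untreated arm. Its middle phase was 1.94-fold above the early one in the stimulated arm and 1.54-fold in the untreated arm. Psmd2, the other large base subunit, averaged 421 CPM and rose 2.15-fold and 2.04-fold. Psmd8 and Psmd11, both lid subunits, were the 2 that did not pass late over early in the untreated arm, at 0.11 ± 0.08 and 0.17 ± 0.11 on the log2 scale (adjusted p = 0.24 and 0.22), and in the stimulated arm they rose by 0.21 ± 0.08 and 0.34 ± 0.11. Both stimulated calls were lost with library totals only, with no filter and without 15 min, 30 min or 24 h, that of Psmd11 also without 12 h, and that of Psmd8 also with the 5 CPM filter, with moved phase limits and without 1, 2 or 48 h.

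Of the 3 chaperones that build the ATPase ring (Psmd5, Psmd9, Psmd10), Psmd9 and Psmd10 rose late over early in both arms and Psmd5 passed in neither. Psmd5 was highest at 3 h in both arms, at 126 CPM in the stimulated and 121 CPM in the untreated arm, and was back at 86.0 and 86.4 CPM at 48 h. It was called higher in the middle phase of the stimulated arm (0.42 ± 0.11, adjusted p = 0.0081) and did not pass late over early in either arm (adjusted p = 0.13 and 0.99). Psmd9 rose late over early by 0.42 ± 0.11 in the stimulated and 0.35 ± 0.11 in the untreated arm (adjusted p = 0.0058 and 0.023), the untreated call being lost with library totals only, with no filter, with moved phase limits and without 15 min, 30 min, 12 h or 24 h. Psmd10, also called gankyrin, had 36.8, 35.6, 34.1, 30.9, 29.4, 38.3, 49.4, 54.4, 58.3 and 52.6 CPM in the stimulated arm, against 31.8, 32.2, 28.4, 31.4, 32.0, 36.1, 44.4, 44.6, 40.4 and 44.8 CPM in the untreated arm. The stimulated course of Psmd10 was lowest at 2 h, and it stood above the untreated one already at 0 min. Late over early Psmd10 rose by 0.72 ± 0.15 and 0.50 ± 0.15 (adjusted p = 0.0012 and 0.017), the untreated call being lost with library totals only and without 30 min, 1 h or 12 h. Across the 10 libraries of an arm, the median Pearson correlation of a member with the other members was 0.96 in each arm. The lowest were 0.56 for Psmd8 in the stimulated and 0.18 for Psmd5 in the untreated arm. These correlations share libraries and one trend over time and are given as a description.

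The 4 activator genes passed late over early in both arms, less than the core and the cap, by medians of 0.60 and 0.41. Psme1, a subunit of the interferon-inducible activator PA28 alpha/beta, had 247, 272 and 267 CPM late and 213, 205 and 211 CPM early in the stimulated arm, against 245, 265 and 253 CPM late and 209.6, 211 and 207 CPM early in the untreated arm. Its late libraries lay above its early ones in both arms, by 1.25-fold and 1.21-fold, the untreated call being lost with library totals only, with no filter and with moved phase limits. Psme2, the beta partner, had 199, 195 and 199.8 CPM early, 220.2, 243 and 268 CPM in the middle and 297, 308 and 291 CPM late in the stimulated arm, against 186, 181 and 179.9, then 195, 216 and 239, then 257, 281 and 251 CPM in the untreated arm. It rose 1.51-fold and 1.44-fold. The nuclear activator PA28 gamma is encoded by Psme3, which had 261, 264 and 306 CPM early, 382, 429.6 and 453 CPM in the middle and 472, 499 and 349.6 CPM late in the stimulated arm, against 282, 277 and 319, then 359, 398 and 389, then 411, 489.7 and 316 CPM in the untreated arm. It rose 1.59-fold and 1.39-fold, the second call being lost without 15 min, 30 min, 12 h or 24 h (adjusted p = 0.066, 0.084, 0.054 and 0.105). Psme4, the large activator PA200, had 242, 253 and 229 CPM late and 158, 155 and 166 CPM early in the stimulated arm, against 222, 218 and 207 CPM late and 164, 165 and 180.1 CPM early in the untreated arm. Its change was 1.51-fold and 1.27-fold.

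Psmc3ip, which is no proteasome subunit, was highest at 6 h, at 35.2 CPM in the stimulated and 33.3 CPM in the untreated arm. Its early libraries had 19.3, 19.9 and 19.2 CPM in the stimulated and 17.7, 19.3 and 18.4 CPM in the untreated arm. It rose 1.51-fold and 1.56-fold middle over early. Its exons overlap those of Mlx on the other strand, which had a mean of 105% of that of Psmc3ip, so its counts cannot be assigned to it with certainty.

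Most genes shared the time of their highest level. In the stimulated arm 24 genes were highest at 24 h and 10 at 12 h, and in the untreated arm 32 at 24 h and 1, Psme4, at 12 h. Psmd5 and Psmd11 were highest at 3 h and Psmd7 and Psmc3ip at 6 h in both arms. At 48 h, 38 of 39 genes were below 24 h in each arm, against 51% of all genes, and the median gene stood at 0.766 of its 24 h level in the stimulated and 0.795 in the untreated arm (0.994 and 0.995 over all genes). The exceptions were Psmd8 in the stimulated arm, at 259 CPM at 48 h and 256 CPM at 24 h, and Psmd10 in the untreated arm, at 44.8 and 40.4 CPM. Each such value compares single libraries, and the 24 h and 48 h libraries of an arm were in different lanes, so the step between them cannot be told apart from the lane. The step also depends on scaling, since the TMM factor went from 0.898 to 1.01 in the stimulated and from 0.928 to 1.01 in the untreated arm.

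**Figure D4:**
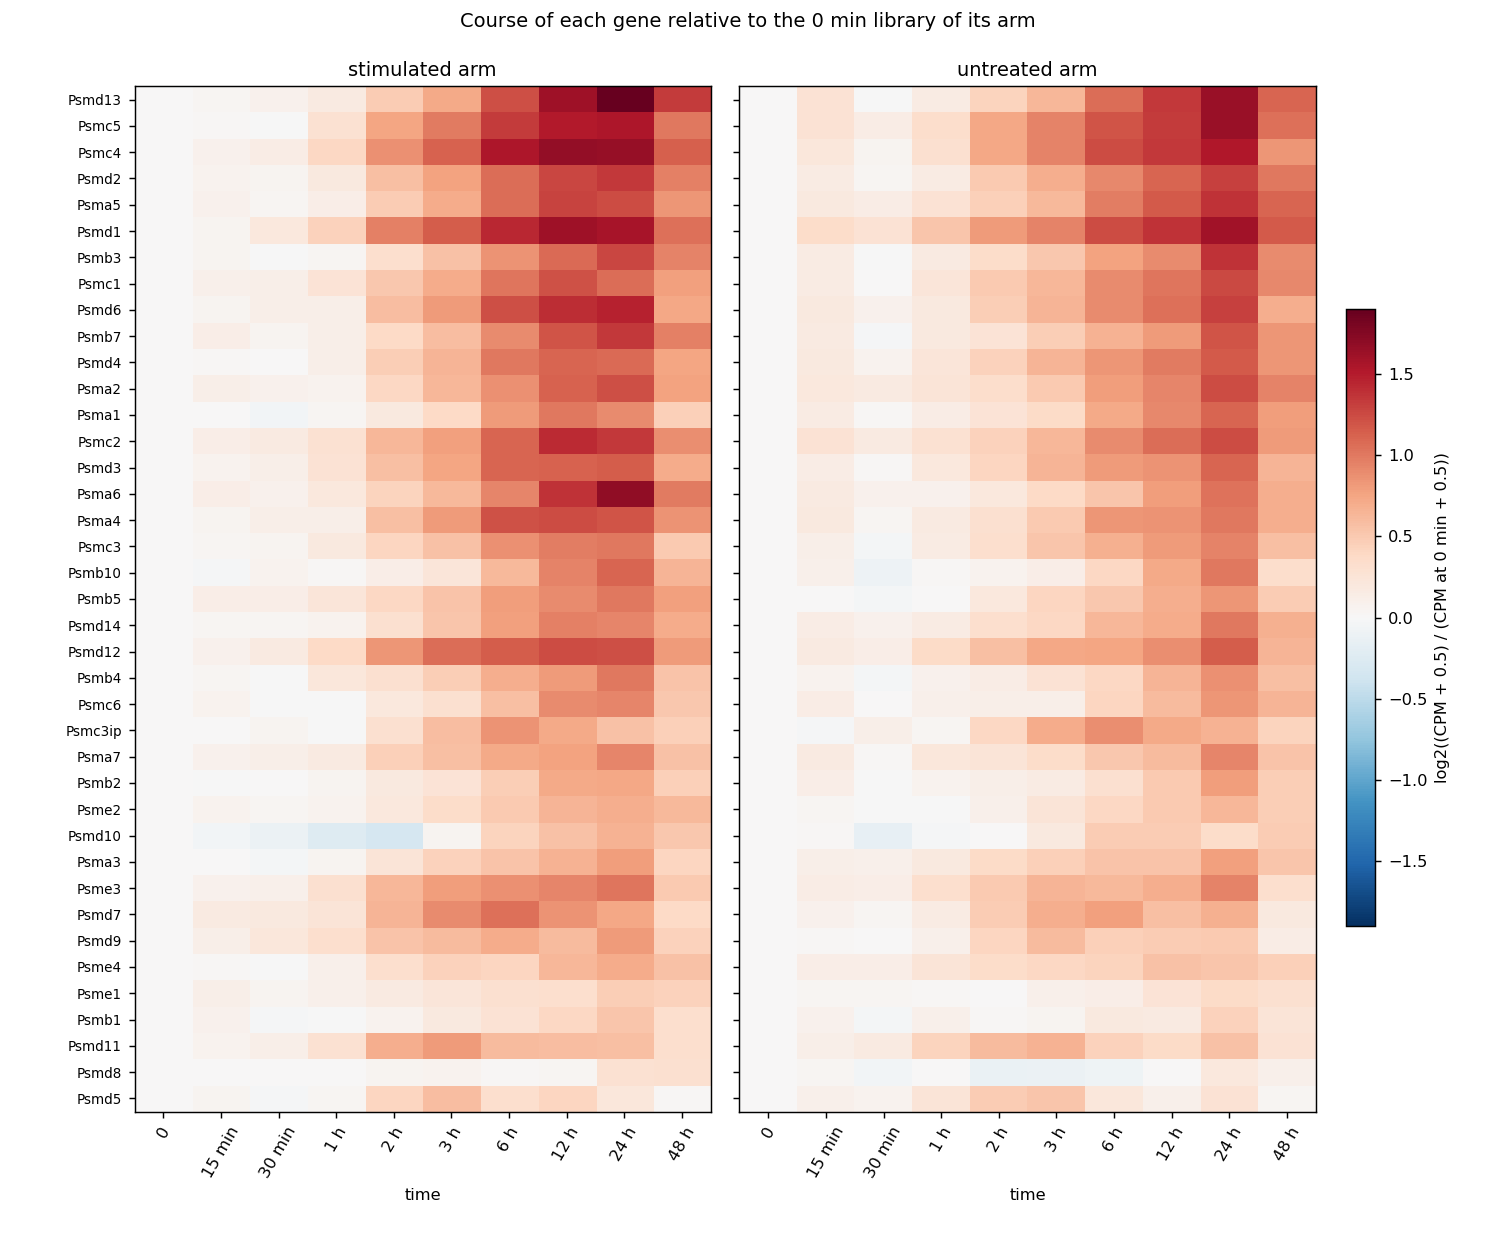
Log2 ratio of CPM plus 0.5 to the 0 min library of the same arm (colour) for 39 genes (rows) at 10 times (columns), stimulated arm on the left and untreated arm on the right. Median values are 0.41 at 2 h, 1.01 at 24 h and 0.65 at 48 h in the stimulated arm and 0.35, 1.00 and 0.64 in the untreated arm, and the rows of Psmd5 and Psmd8 stay pale.

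Against these changes over time, the difference between the arms was small, and of the genes that passed, Psma6 had the largest. In the first hour 0 of 39 genes passed in either direction (edgeR; 0.598% of 12042 genes were higher and 1.64% lower), 5 had an unadjusted p under 0.05, and DESeq2 called 0. In the middle phase 7 were higher in the stimulated arm and 0 lower (17.9% of members, against 10.2% higher and 10.3% lower of all genes). In the late phase 6 were higher and 0 lower (15.4%, against 17.8% and 18.3% of all genes), a share near that of all genes. Median log2 fold changes were -0.05, 0.12 and 0.07 in the 3 phases, and no gene reached a 2-fold difference in any. Leaving out times moved the middle count to 4 without 15 min, 4 without 30 min, 3 without 1 h, 2 without 2 h, 1 without 3 h, 1 without 6 h, 13 without 12 h and 12 without 48 h. With library totals as the only scaling 2 genes passed there (of all genes 669 were higher and 2006 lower, against 1228 and 1235 with TMM), and set against the difference at 0 min 0 passed in the middle and 0 in the late phase, where 0.189% and 3.49% of all genes were higher.

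Single times show where the arms parted. The median log2 ratio of stimulated to untreated CPM over the 39 genes was -0.01 at 0 min, -0.07, -0.01 and -0.05 at 15 min, 30 min and 1 h, 0.07, 0.10 and 0.16 at 2, 3 and 6 h, and 0.20, 0.03 and 0.01 at 12, 24 and 48 h. The stimulated library was higher for all 39 genes at 6 h and at 12 h (52.5% and 53.2% of all genes), for 24 at 24 h and for 20 at 48 h. At 6 h the TMM factor was 0.955 in the stimulated and 1.01 in the untreated arm, and at 12 h 0.922 and 0.975. By library totals alone the ratios at these times would be lower. Each of these ratios rests on 1 library per arm and has no replicate check, and arm and lane differ at each time.

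**Figure D5:**
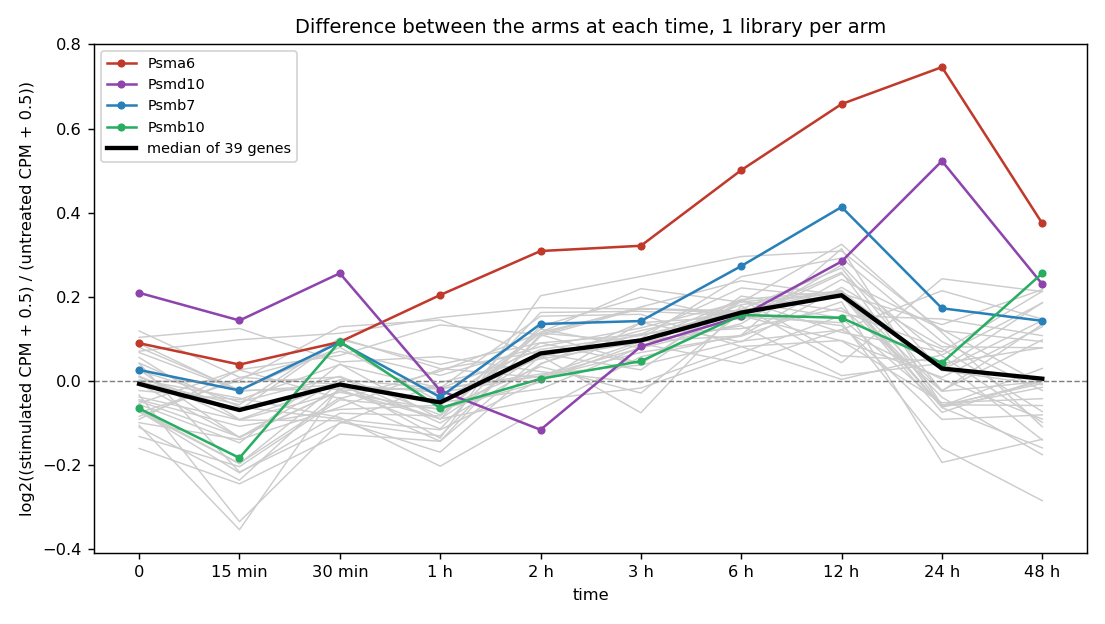
Log2 ratio of stimulated to untreated CPM plus 0.5 (vertical) at each time (horizontal) for the 39 genes in grey, with Psma6, Psmd10, Psmb7 and Psmb10 in colour and the median in black. Psma6 stands apart from 2 h and reaches 0.75 at 24 h, while the median has its maximum of 0.20 at 12 h.

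Psma6 was 1.30-fold higher in the stimulated arm in the middle phase (0.38 ± 0.07, adjusted p = 0.0033) and 1.50-fold higher late (0.58 ± 0.07, adjusted p = 7.3e-05, higher at 9 of 9 times after 0 min). Its difference grew from the early to the late phase by 0.47 ± 0.09 (adjusted p = 0.0057). Relative to the 0 min pair, which already differed by 0.09, the late value was 0.50 with adjusted p = 0.052, and without pairing by time the growth had adjusted p = 0.31. Psmd10 was 1.26-fold higher late (0.34 ± 0.08, adjusted p = 0.0054), but at 0 min its stimulated library was already higher by 0.21, and relative to that pair the difference was 0.14 (adjusted p = 0.67); without 24 h adjusted p = 0.052. Psmb7 was 1.14-fold higher in the middle phase (0.19 ± 0.06, adjusted p = 0.04), a call kept only when 12 h or 48 h was the time left out, and 1.18-fold higher late (0.23 ± 0.06, adjusted p = 0.0085), where it was 0.15 with adjusted p = 0.052 without 12 h. Psma4 was 1.19-fold higher in the middle phase (0.25 ± 0.05, adjusted p = 0.0091; adjusted p = 0.063 without 3 h and 0.061 without 6 h) and 1.12-fold higher late (adjusted p = 0.036), a call lost with library totals only and without 1 h, 12 h or 24 h. The other genes higher in the middle phase were Psma7, Psmd12, Psme2 and Psme3, by 1.11-fold to 1.13-fold. Each of these calls was lost with library totals only, with no filter and without 2, 3 or 6 h. That of Psma7 was also lost without 1 h, and those of Psmd12 and Psme3 without 15 min, 30 min or 1 h. Psme2 and Psme4 were higher late, by 1.13-fold and 1.11-fold, the call of Psme4 being lost without 24 h (adjusted p = 0.071). Psme2 was already higher in the stimulated arm by 0.07 at 0 min and by 0.12 ± 0.04 early (adjusted p = 0.14). Its growth from early to late was 0.05 ± 0.06 (adjusted p = 0.55).

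The rise of the stimulated over untreated log2 fold change, late minus early, passed for 4 genes with 0 in the other direction (10.3% of members, against 10.2% higher and 9.52% lower of all genes). Beside Psma6 these were Psmd13 (0.28 ± 0.09, adjusted p = 0.044), Psma4 (0.28 ± 0.08, adjusted p = 0.029) and Psme4 (0.24 ± 0.06, adjusted p = 0.014). Psmd13 went from -0.15 ± 0.06 early to 0.13 ± 0.06 late and passed in neither phase. Psma4 and Psme4 also went from below to above the untreated arm. The count was 2 without 15 min, 1 without 1 h, 2 without 12 h and 7 without 48 h, and with lane as a term it was 1. Of all genes 5.61%, 6.43%, 11.6%, 8.95% and 6.29% were higher in these fits. Psma4 was lost without 15 min, 1 h or 12 h (adjusted p = 0.12, 0.09 and 0.066) and Psme4 without 1 h (adjusted p = 0.056), while the call of Psmd13 remained only when 30 min or 6 h was the time left out. For the remaining 35 genes the test of the difference did not pass, which does not show that they behaved alike in both arms. Marker levels also moved between the arms late: the summed B cell list was 1489 to 1645 CPM in the stimulated and 2034 to 2163 CPM in the untreated late libraries, the 9 macrophage and monocyte genes 47.3 to 98.3 and 25.9 to 39.1 CPM, and the 5 dendritic cell genes 35.4 to 66.1 and 18.4 to 22.0 CPM. Their part in the differences between the arms was not tested.

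The change over time was also present within a lane. In the stimulated arm the median gene was higher than the early library of the same lane by 0.56 in the middle phase (lane 4), by 0.86 at 12 and 24 h (lane 2) and by 0.59 at 48 h (lane 4), on the log2 scale, with 39 of 39 genes higher each time. In the untreated arm the values were 0.52 at 3 and 6 h (lane 3, 38 of 39 higher), 0.75 at 12 and 24 h (lane 1, 39 of 39) and 0.62 at 48 h (lane 3, 38 of 39). Between 48.3% and 50.9% of all genes were higher in the same comparisons.

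Genes that assemble, regulate or feed the proteasome moved only in part with it. Of 27 such genes 25 were tested. Late over early, 13 rose and 4 fell in the stimulated arm, where 29.2% of all genes rose and 25.7% fell. In the untreated arm 12 rose and 4 fell, where 22.6% of all genes rose and 20% fell. The median log2 changes of the list were 0.35 and 0.31. Pomp, the chaperone that matures the 20S core, rose by 0.89 ± 0.13 and 0.85 ± 0.13 on the log2 scale, and Psmg3, a chaperone of the alpha ring, by 1.09 ± 0.25 and 1.00 ± 0.25. The cap-bound ubiquitin receptor Adrm1 rose by 0.70 and 0.53, the deubiquitinases Usp14 by 0.55 and 0.56 and Uchl5 by 0.82 and 0.61, and the segregase Vcp by 0.64 and 0.57. Nfe2l1, the transcription factor known to induce proteasome genes when the proteasome is inhibited, fell by 0.77 ± 0.25 and 0.73 ± 0.25 (adjusted p = 0.016 and 0.027). Between the arms, 5 genes of this list were higher and 0 lower in the middle phase, where 10.2% of all genes were higher and 10.3% lower. Late, 3 were higher (Akirin2, Nfe2l1, Nploc4) and 1 lower (Nfe2l2), where 17.8% of all genes were higher and 18.3% lower. No result about the list is read from the late counts. The proteasome assembly chaperone Psmg1 had 9 counts in all.

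Immunoproteasomes feed class I antigen presentation, and several genes of that pathway were higher in the stimulated arm late. Of 14 listed genes 9 were tested, since Tap1, Tap2, Tapbp, H2-K1 and H2-D1 lie in the run of genes near 0 on chromosome 17. Stimulated over untreated, 5 were higher late and 0 lower, where 17.8% of all genes were higher and 18.3% lower. Among the 5 were Tapbpl, a peptide editor, by 0.74 ± 0.08 (adjusted p = 4.3e-05), and B2m, the light chain of class I molecules, by 0.64 ± 0.08. The chaperone Calr was higher by 0.26 ± 0.07 and the peptide-trimming Erap1 by 0.15 ± 0.04. Late over early, 8 rose and 0 fell in the stimulated arm, where 29.2% of all genes rose and 25.7% fell. In the untreated arm 3 rose (Calr, Canx, Pdia3) and 1 fell (B2m), where 22.6% of all genes rose and 20% fell. In the test of the arm difference, late minus early, 5 were higher and 0 lower, where 10.2% of all genes were higher and 9.52% lower. Psmb10, whose gene interferon is known to induce, had 0.14 ± 0.07 late, stimulated over untreated.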

How the data were processed

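Poly-A libraries of 20 samples were used, 10 per arm. The deposited values are counts per gene, which per the submitters' processing notes the authors obtained by STAR and HTSeq against the GRCm38.p3 (mm10) genome; no source used here gives the versions or the strand setting. Members and gene lists were chosen with earlier results of these data known.

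A gene was tested where 3 libraries or more had 1 CPM or more. This left 12042 genes for comparing the arms (the 18 libraries taken after 0 min) and 12139 genes for change over time (20 libraries). Both used the quasi-likelihood F-test of edgeR 4.0.16 (R 4.3.3) with TMM scaling, and p-values were adjusted by Benjamini-Hochberg over all genes tested, with a threshold of 0.05. For the arms, time was a factor, which pairs the libraries of a time, and treatment was fitted within each phase. For change over time, 8 groups were fitted. SEs are log2 fold changes divided by the square root of F. Single-time ratios used a pseudocount of 0.5 CPM and had no test. Genes given in full were the catalytic pairs, the activators and, per comparison, the 3 called members with the largest change in each direction; other examples were picked after their values were seen, and some items are not reported here. Exon lengths, overlaps and positions are those of GENCODE vM21 (GRCm38), and promoter windows those of RefSeq (GRCm38.p6). An exon length is that of the merged exons of all annotated transcripts of a gene, so levels per kb depend on the annotation. The fits were tested on simulated data. Alternatives included DESeq2 1.42.0, other scalings, filters, phase limits and pairings; values within a lane were chosen after seeing the data. Depth per library was 36873155 to 60918651 counts, where 3 counts are 0.0492 to 0.0814 CPM, a floor for counting error only.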

Additional observations from a re-analysis of the deposited data

Results flagged for a closer look

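For 4 genes the log2 fold change of the stimulated over the untreated arm was higher late than early by the interaction test (edgeR quasi-likelihood test, adjusted p under 0.05, 3 times per phase and arm). It rose by 0.47 for Psma6, 0.28 for Psmd13, 0.28 for Psma4 and 0.24 for Psme4. Psmd13 went from -0.15 early to 0.13 late, Psma4 from -0.11 to 0.16 and Psme4 from -0.09 to 0.15. Early, these 3 lay below the untreated arm. Psmd13 passed in neither phase. For Psmd13 the early stimulated libraries had 52.7, 54.6 and 58.0 CPM and the early untreated ones 67.5, 55.1 and 61.8 CPM, the untreated 15 min library being the highest of them, and without 15 min the growth was 0.17 with adjusted p = 0.16. Psma6 kept its call in every alternative except the fit without pairing by time. No library stood apart from the others of its arm for any member by Dixon's test in 78 series of 10 libraries. Each series follows a trend over time that widens its range, so the test could hardly flag a library and is no check on them.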

How the results depend on the processing

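No result reversed. The middle-phase count of members higher in the stimulated than the untreated arm (7) became 2 with library totals only, 4 with no filter on low counts, 0 without pairing by time, 0 relative to the 0 min pair and 1 with phase limits moved by 1 time. Of all genes 10.2% were higher in the main middle-phase fit and 5.56%, 4.35%, 1.16%, 0.189% and 1.99% in these alternatives. The late count (6) became 1 without pairing by time and 0 relative to the 0 min pair, where the all-gene share went from 17.8% to 5.98% and 3.49%. The late minus early count (4) became 1 with lane as a term, 0 without pairing and 1 with moved phase limits. There the all-gene share went from 10.2% to 6.29%, 1.74% and 4.6%. With moved limits the middle over early counts became 0 in the stimulated (34) and 0 in the untreated arm (20), where 0.601% and 0% of all genes rose. Leaving out each time in turn gave 1 to 13 members higher in the middle phase, 5 to 8 higher and 0 to 2 lower late, 1 to 7 for late minus early, 29 to 36 for stimulated and 1 to 26 for untreated middle over early, and 36 to 38 and 31 to 36 for stimulated and untreated late over early. Late over early kept its count within 1.5 times under all alternatives run. Without division by exon length the mean Psmb10 to Psmb7 ratio was 0.218 in the stimulated and 0.233 in the untreated arm. With library totals only the median log2 change of all genes was as low as -0.14, the members' median staying positive in each time comparison. With lane as a term the treatment effect within a phase could not be fitted, since lanes and arms are nearly aliased. The arms were paired by time alone. No sample label holds a replicate number, and with 1 animal per arm no pairing by animal was possible. The causes of these changes were not tested, and 1 animal per arm limits every comparison of the arms.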

Other observations

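The neighbours of Psma6 on chromosome 12, looked up after its values were seen, gave the following differences between the stimulated and the untreated arm. The next tested protein-coding gene on one side is Nfkbia, the NF-kB inhibitor gene, at 55489410 to 55492647 on the opposite strand, and Psma6 itself spans 55384222 to 55418454 (GRCm38). Nfkbia was higher in the stimulated arm by 1.37 ± 0.28 on the log2 scale in the middle phase (adjusted p = 0.0072) and by 1.48 ± 0.28 late (adjusted p = 0.0021). On the other side 1110008L16Rik had 0.12 ± 0.06 late (adjusted p = 0.13) and Srp54c, the third gene along, 0.32 ± 0.07 (adjusted p = 0.0031). The genes beyond Nfkbia, Ralgapa1 and Brms1l, had 0.02 ± 0.04 and -0.08 ± 0.05 late and did not pass. Whether position bears on Psma6 was not tested.

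Psme2b, the intronless copy of Psme2 left out by the level rule, had 95 to 273 counts in the stimulated and 86 to 323 counts in the untreated libraries. As a near-identical copy shares sequence with Psme2, how reads were split between the 2 genes is uncertain.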
